A study of Mus musculus with 4 samples.

Results

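Ndrg1 and 9 genes of the hypoxia pathway (Vegfa, Slc2a1, Egln1, Egln3, Bnip3, Ankrd37, Hif1a, Pfkfb3 and Mxi1) were followed in cultured mouse vascular smooth muscle cells, which give the artery wall its tone. The rows were found by gene symbol, and all 10 were present among the 22488 genes listed. The set was chosen on measured values of the same comparison: Ndrg1 ranked 8 by size among the genes called higher with circEsyt2 siRNA, and the other 9 were put beside it to see whether it was higher with or without them. The values of these 10 genes are therefore given as a description, without p-values. Intervals and calls printed for them come from the fit over all genes and take no account of that choice. The cells came from C57BL/6 mice at passage 4 to 10 and were harvested 48 hours after transfection. The treated group (2 libraries) received an siRNA against circEsyt2, a circular RNA from the gene Esyt2, and the control group (2 libraries) a scramble siRNA. The files give values per gene, so the circular RNA itself was not measured. No library of untransfected cells was analysed here, the labels give no oxygen level, and they do not say whether replicates were separate cultures, so the spread between replicates may be technical.

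Cells sense oxygen through the hypoxia-inducible factors (HIF). Prolyl hydroxylases of the EGLN family use oxygen to mark the alpha subunit for destruction, mostly through the protein VHL, so that the factor builds up when oxygen is short. HIF then binds short DNA elements with the core ACGTG or GCGTG and raises genes for glucose uptake, glycolysis, vessel growth and mitophagy. Because this control acts on the protein, the mRNA level of Hif1a does not measure HIF activity. NDRG1, a cytosolic protein named after its family (N-myc downstream regulated genes), is known as a target of HIF, but also responds to other stresses, to p53, to MYC and to iron depletion.

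Promoter sequences are shown for 4 of the genes, picked by their values. Bnip3 and Slc2a1 were higher and Egln3 and Pfkfb3 lower with circEsyt2 siRNA, and only Bnip3 was called. ACGTG or GCGTG is present in 43.8% of all promoters, and a link of the core to direction was not tested. The sequences shown for these 4 genes each hold the core. They are RefSeq sequences on GRCm38.p6, read 5′ to 3′ on the gene's strand from 250 bases before to 50 bases after a start site. Capitals mark ACGTG and GCGTG on either strand. Bnip3 lies at chr7:138909457-138909756 (minus strand), Slc2a1 at chr4:119108495-119108794 (plus), Egln3 at chr12:54203825-54204124 (minus), and the upstream one of 2 Pfkfb3 starts at chr2:11553880-11554179 (minus).
Bnip3: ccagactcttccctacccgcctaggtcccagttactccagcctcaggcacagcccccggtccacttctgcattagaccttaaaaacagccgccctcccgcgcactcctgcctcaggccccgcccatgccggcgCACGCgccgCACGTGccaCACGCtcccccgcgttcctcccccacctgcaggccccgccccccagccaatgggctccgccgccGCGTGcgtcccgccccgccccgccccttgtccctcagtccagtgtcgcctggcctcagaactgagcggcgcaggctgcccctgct
Slc2a1: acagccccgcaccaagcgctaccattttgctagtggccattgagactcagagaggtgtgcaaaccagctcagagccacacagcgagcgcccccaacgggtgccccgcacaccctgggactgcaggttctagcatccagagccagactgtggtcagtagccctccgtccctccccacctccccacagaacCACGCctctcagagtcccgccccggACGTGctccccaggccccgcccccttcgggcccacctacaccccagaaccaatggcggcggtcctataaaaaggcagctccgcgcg
Egln3: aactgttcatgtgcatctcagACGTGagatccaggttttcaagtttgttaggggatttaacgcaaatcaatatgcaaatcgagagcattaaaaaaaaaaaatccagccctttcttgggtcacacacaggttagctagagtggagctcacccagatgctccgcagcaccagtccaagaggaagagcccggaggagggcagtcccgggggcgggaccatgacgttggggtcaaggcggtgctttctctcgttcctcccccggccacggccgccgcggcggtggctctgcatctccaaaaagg
Pfkfb3: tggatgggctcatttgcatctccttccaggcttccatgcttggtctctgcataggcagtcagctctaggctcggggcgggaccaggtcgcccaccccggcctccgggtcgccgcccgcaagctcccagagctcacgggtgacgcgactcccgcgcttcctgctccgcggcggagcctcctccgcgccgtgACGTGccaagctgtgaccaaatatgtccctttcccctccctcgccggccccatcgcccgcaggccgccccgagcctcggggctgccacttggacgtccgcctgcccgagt

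In these windows Bnip3 held 5 matches, 2 of them ACGTG on opposite strands within 1 palindrome CACGTG, which is also the E-box bound by MYC and its partners. Slc2a1 held 2 matches, at -61 and -36 from the start site. Egln3 held 1 match at -229 and the printed Pfkfb3 window 1 at -60. The downstream Pfkfb3 window, at chr2:11502041-11502340 and not printed, held 4 matches, with a CACGTG palindrome among them. The RefSeq table matched 9 of the 10 genes (all but Ndrg1), with 13 windows in all. ACGTG was present in 11 of these 13 windows, against 19.6% of all 32851 promoters, and GCGTG in 6 of 13, against 32.4%. The windows without a match were 1 of 2 for Vegfa and 1 of 3 for Mxi1. The element TGATGNAA, read by ATF4 together with C/EBP proteins in the amino acid response, was present in 0 of 13 windows, against 3.97% of all promoters. The 9 genes were chosen for the HIF pathway and some have several windows, so these shares carry no test. With 13 windows and a share of 3.97% among all promoters, a count of 0 cannot show an absence of TGATGNAA. Matches describe letters in a short window, and enhancers outside it were not examined.

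The libraries held 3765056 and 3127224 counted reads with circEsyt2 siRNA, against 2516428 and 4116791 with scramble siRNA, solved from the digits of the deposited FPKM (reads scaled to gene length and library total). The Pearson r of log2 values over 11290 genes was 0.931 between the circEsyt2 siRNA libraries and 0.972 between the scramble libraries, genes not being independent replicates. Hepatocyte genes, such as the albumin gene Alb, stood apart in 1 library. The summed FPKM of 10 hepatocyte markers was 3130 and 96.7 in circEsyt2 siRNA replicates 1 and 2. In scramble replicates 1 and 2 it was 12.4 and 4.18. All 10 markers were higher in both treated libraries (100%, beside 29.7% of all tested genes), and 0 of the 10 were called. Apoa2 and Apoc3 were listed at 0 in both scramble libraries. Over 6 macrophage markers the sums were 39.4 and 8.07 with circEsyt2 siRNA, against 12.7 and 14.4 with scramble siRNA. Lyz2 was the largest part of the 39.4, at 21.4 and 0.972 FPKM with circEsyt2 siRNA, against 1.21 and 0.923 with scramble siRNA. Of the 4 tested, Cd68 was higher and Csf1r lower without overlap (25% each way, beside 29.7% and 31.1% of all tested genes). For 6 endothelial markers the sums were 5.11 and 3.97 with circEsyt2 siRNA, against 2.81 and 3.28 with scramble siRNA. Of 8 smooth muscle markers 7 averaged at least 1 FPKM, Des being the exception. The sums over the 8 were 1180 and 1090 with circEsyt2 siRNA, against 1960 and 2040 with scramble siRNA. Of the 7 tested, 6 were called lower (85.7%, beside 7.26% of all tested genes). The 6 fibroblast markers summed to 250 and 228, against 286 and 288 with scramble siRNA. Most of each sum was Dcn, at 205 and 192 FPKM, against 184 and 190 with scramble siRNA. Of the 5 tested, 4 were lower without overlap (80%, beside 31.1% of all tested genes), and Dcn was higher. Pdgfra and Mfap5 were called lower, at means of 7.28 and 27.9 FPKM with circEsyt2 siRNA, against 19.9 and 66.2 with scramble siRNA. Fewer cells of a type and less RNA per cell cannot be told apart in such bulk samples. The part of the hepatocyte RNA and of the lower smooth muscle and fibroblast markers in other results was not tested. Values without circEsyt2 siRNA replicate 1 are therefore given where results rest on it.

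Ndrg1 had 20.5 and 18.9 FPKM in the circEsyt2 siRNA libraries, against 2.71 and 2.80 FPKM in the scramble libraries. Both treated libraries lay far above both controls, and replicates of a group differed little. These values rest on 508 and 390 reads with circEsyt2 siRNA, against 45 and 76 with scramble siRNA. The means were 19.7 ± 1.09 and 2.75 ± 0.062 FPKM (SD, n = 2 each), a 7.14-fold higher mean with circEsyt2 siRNA. On the log2(FPKM + 1) scale, where changes of low genes come out too small, the difference was 2.46 (SE 0.15), and it was 2.41 without circEsyt2 siRNA replicate 1, the library rich in hepatocyte markers. Ndrg1 (Entrez 17988) lies on chromosome 15 at 66929318 to 66969640 of GRCm38, minus strand. Of its exon bases 6.35% overlap Gm17035 and 2.08% overlap Gm2895 on the opposite strand. Neither was listed in the files, and a strand setting for the counting is not given in the sources used here.

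**Figure D1:**
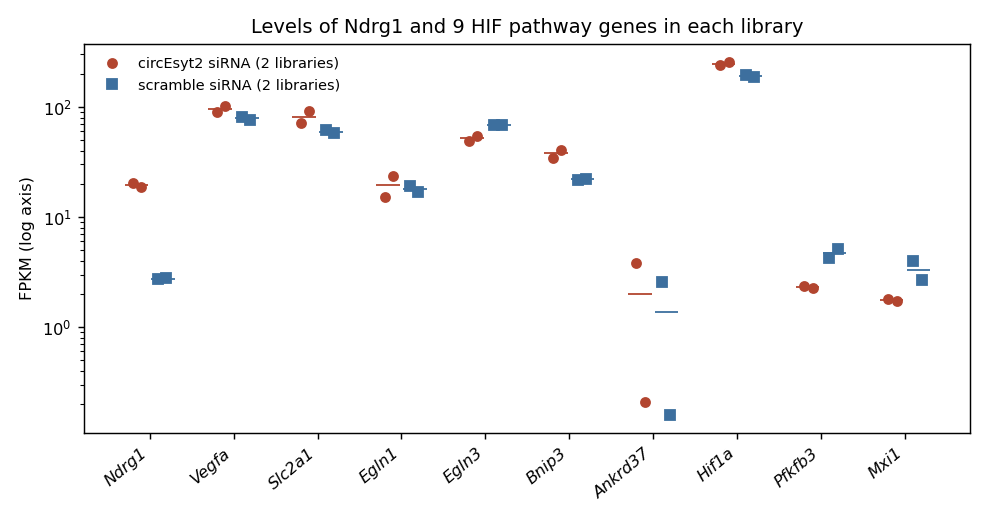
FPKM on a log axis of Ndrg1 and 9 HIF pathway genes, with 1 circle for each circEsyt2 siRNA library, 1 square for each scramble siRNA library and a line at each group mean (n = 2). Ndrg1 stood at 20.5 and 18.9 FPKM with circEsyt2 siRNA, against 2.71 and 2.80 with scramble siRNA, and no other gene in the plot had its groups so far apart.

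Hif1a, which encodes the oxygen-controlled subunit HIF-1α, had 239 and 258 FPKM with circEsyt2 siRNA, against 194 and 189 with scramble siRNA. It was the most abundant of the 10 genes in each group, and its difference was 0.37 (SE 0.10) on the log2 scale. Egln1, which encodes PHD2, the main hydroxylase of HIF-1α in most cells, had 15.1 and 23.8 FPKM with circEsyt2 siRNA, against 19.1 and 16.8 with scramble siRNA. The groups overlapped, and the difference of 0.08 has a 95% interval of -0.48 to 0.64. Egln3, which encodes PHD3 and is itself a HIF target that feeds back on the pathway, had 49.2 and 54.7 FPKM with circEsyt2 siRNA, against 68.8 and 68.2 with scramble siRNA. Both treated libraries were below both controls, by 0.39 on the log2 scale (SE 0.11). In the scramble cells Egln3 was thus the more abundant of the pair per kilobase, at 68.5 ± 0.463 FPKM beside 18.0 ± 1.63 for Egln1 (SD, n = 2).

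Among the targets that carry out the response, Bnip3 showed the largest upward difference after Ndrg1. BNIP3 sits on the outer mitochondrial membrane and marks mitochondria for removal by autophagy. Its FPKM was 34.7 and 40.9 with circEsyt2 siRNA, against 21.8 and 22.2 with scramble siRNA, with 296 and 290 reads against 124 and 207. The mean was 1.72-fold higher with circEsyt2 siRNA and the log2 difference 0.75 (SE 0.13), or 0.87 without circEsyt2 siRNA replicate 1. Exons of Gm45507 on the opposite strand, not listed in the files, overlap 22.3% of its exon bases. The Bnip3 window printed above was the one with the most HIF cores among the 13.

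Slc2a1, the gene of the glucose transporter GLUT1, had 71.5 and 91.0 FPKM with circEsyt2 siRNA, against 61.8 and 57.5 with scramble siRNA. Vegfa, which encodes the main growth factor of vessels, had 90.0 and 101 FPKM with circEsyt2 siRNA, against 81.4 and 75.9 with scramble siRNA. In both genes the treated libraries were above the controls, but by small margins, with log2 differences of 0.43 (95% interval 0.07 to 0.79) for Slc2a1 and 0.27 (0.00 to 0.55) for Vegfa.

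Pfkfb3 and Mxi1 were lower. Pfkfb3, whose enzyme makes the sugar phosphate that drives glycolysis forward, had 2.35 and 2.28 FPKM with circEsyt2 siRNA, against 4.26 and 5.14 with scramble siRNA. The mean was 2.03-fold higher with scramble siRNA, and the log2 difference was -0.78 (SE 0.21). Mxi1, whose protein competes with MYC for their partner MAX, had 1.80 and 1.71 FPKM with circEsyt2 siRNA, against 3.96 and 2.68 with scramble siRNA, a log2 difference of -0.63 (SE 0.27). For Mxi1 the reads were at least 38 and 30 with circEsyt2 siRNA, against at least 56 and 62, because the smallest gene length that gave whole numbers was used. Neither gene's groups overlapped.

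Ankrd37, an ankyrin repeat gene used as a sensitive marker of hypoxia, split by library and not by treatment. It had 3.80 and 0.208 FPKM with circEsyt2 siRNA, against 2.58 and 0.158 with scramble siRNA, from 22 and 1 reads against 10 and 1. One library of each group was high and the other near 0, so its difference of 0.24 has an interval of -1.78 to 2.26 and no direction could be given at this depth. Exons of Lrp2bp on the opposite strand overlap 22.7% of its exon bases, and Lrp2bp was at 0.490 and 0.590 FPKM with circEsyt2 siRNA, against 0.733 and 0.840 with scramble siRNA, without that split.

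**Figure D2:**
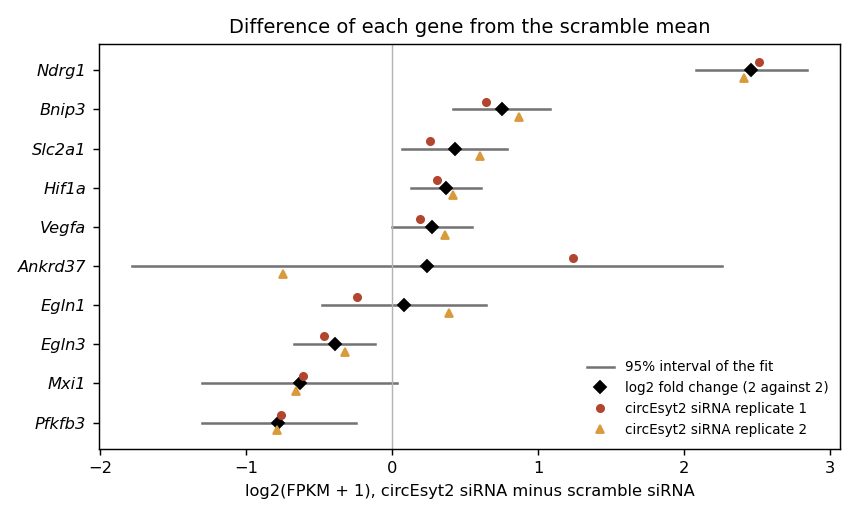
Difference from the scramble mean on the log2(FPKM + 1) scale for each gene, with a diamond for the fitted difference of 2 against 2 libraries, a line for its 95% interval, a circle for circEsyt2 siRNA replicate 1 and a triangle for replicate 2. Ndrg1 lies at 2.46 and the other 9 genes between -0.78 and 0.75, with the 2 treated libraries on opposite sides of 0 for Egln1 and Ankrd37.

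The treated libraries were above the controls without overlap for 5 of the 10 genes (Ndrg1, Bnip3, Slc2a1, Hif1a and Vegfa), below them for 3 (Egln3, Mxi1 and Pfkfb3), and overlapped for Egln1 and Ankrd37. Leaving out Ndrg1, on which the set was chosen, these were 4 and 3 of 9 (44.4% and 33.3%), with 1 of 9 called. Over all 11290 tested genes such a gap was seen upward in 29.7% and downward in 31.1%. All 10 genes passed the filter of a mean of at least 1 FPKM. In the fit over all genes 2 of the 10 (Ndrg1 and Bnip3) were past the threshold, both upward. Of all tested genes 12.7% were called, 5.47% higher and 7.26% lower. The Bnip3 call did not hold without circEsyt2 siRNA replicate 2, and both calls were lost when either scramble replicate was left out. Since the set was chosen with this comparison known, nothing is read from these counts. Without Ndrg1 the median log2 difference of the other 9 was 0.24, beside 0.0037 over all tested genes. This median is the value of Ankrd37 itself, whose interval was -1.78 to 2.26, so no shift of the set is read from it.

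Ordered by level per kilobase, the scramble cells had Hif1a first (192 ± 3.17 FPKM), then Vegfa (78.7 ± 3.90), Egln3, Slc2a1 (59.6 ± 3.02), Bnip3 (22.0 ± 0.314), Egln1, Pfkfb3 (4.70 ± 0.624), Mxi1 (3.32 ± 0.905), Ndrg1 and Ankrd37 (SD, n = 2). Only Mxi1 and Ndrg1 overlapped among neighbours in that order. With circEsyt2 siRNA the order was Hif1a (248 ± 13.4 FPKM), Vegfa (95.4 ± 7.70), Slc2a1 (81.3 ± 13.8), Egln3 (51.9 ± 3.87), Bnip3 (37.8 ± 4.41), Ndrg1, Egln1 (19.5 ± 6.20), Pfkfb3 (2.32 ± 0.0493), Ankrd37 and Mxi1 (1.75 ± 0.0629). There the neighbours Vegfa and Slc2a1, Ndrg1 and Egln1, and Ankrd37 and both Pfkfb3 and Mxi1 overlapped. Ndrg1 thus stood at the level of Mxi1 in scramble cells and at the level of Egln1 with circEsyt2 siRNA.

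Genes nearest to Ndrg1 in their profile over the 4 libraries were sought outside the set only, leaving out predicted genes, Rik clones and pseudogenes. By the Euclidean distance between log2 values centred on each gene's mean, the 5 nearest were Plin2, Ddit3, Cxadr, Nrk and Zfp568, at distances of 0.17 to 0.33. Plin2, which encodes a coat protein of lipid droplets, had 233 and 246 FPKM with circEsyt2 siRNA, against 43.9 and 47.2 with scramble siRNA. Ddit3, the gene of the stress factor CHOP, had 111 and 103 FPKM, against 20.9 and 21.7 with scramble siRNA. Cxadr, a junction protein gene, had 12.7 and 14.5 FPKM with circEsyt2 siRNA, against 1.99 and 1.41 with scramble siRNA. Nrk, a kinase gene, had 14.3 and 16.9 FPKM with circEsyt2 siRNA, against 2.59 and 2.40 with scramble siRNA, and Zfp568, a zinc finger gene, 21.8 and 22.4 FPKM against 4.43 and 3.60. Among the other 9 of the set Bnip3 was the nearest, at a distance of 1.73 and rank 649 among the tested genes, and Pfkfb3 was the farthest at 3.24. These distances describe 4 libraries that share 1 contrast, the one on which Ndrg1 was chosen, and carry no test.

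**Figure D3:**
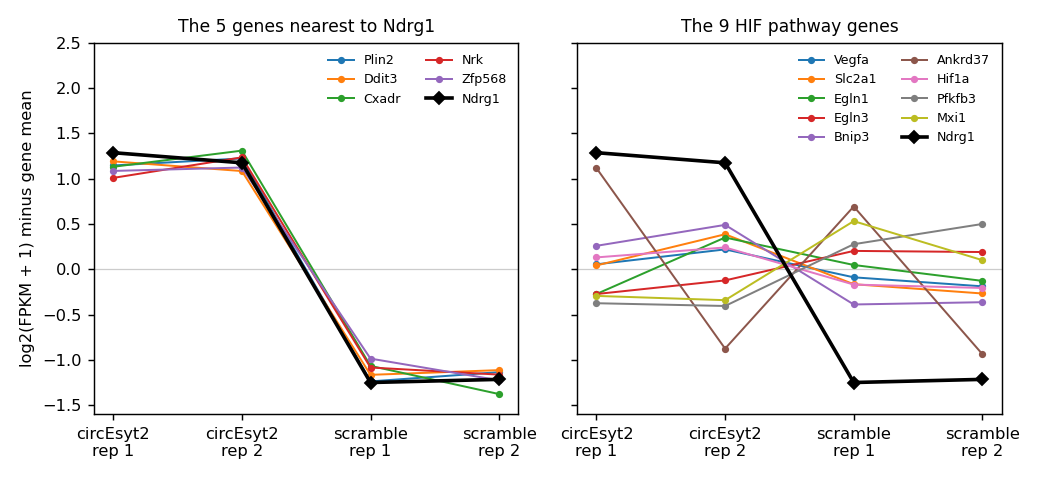
Log2(FPKM + 1) minus the gene's mean over the 4 libraries, for Ndrg1 (black diamonds) with the 5 nearest genes on the left and with the other 9 genes of the set on the right. Lines only join the points of 1 gene. The 5 nearest genes, picked for that, lie within a distance of 0.33 of Ndrg1, and the 9 HIF pathway genes at 1.73 or more. The gap between the panels was set in part by that choice and carries no test. A distance also grows with the size of a difference in the same direction, as for Bnip3.

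The rest of the HIF pathway was read from lists of genes named for their role and not for their values, although with earlier results of these data known. Each p comes from limma, is two-sided, and was adjusted by Benjamini-Hochberg for all genes of its fit, 11290 in the main one. Of the 49 HIF targets outside the set, 44 passed the filter, and of these 4 rose, 5 fell and 35 were not called. That is 9.09% higher and 11.4% lower, beside 5.47% and 7.26% of all tested genes, and the median log2 difference was 0.03. The treated libraries were above the controls without overlap for 15 of the 44 and below for 16, or 34.1% and 36.4%, beside 29.7% and 31.1% overall. Without circEsyt2 siRNA replicate 2 the counts were 1 higher and 3 lower, without replicate 1 they were 4 and 4, and without either scramble replicate limma called 0 of all genes tested (1959 and 2231 genes at an unadjusted p under 0.05 without scramble replicate 1 and 2). So every call named below was lost in those last fits.

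In the glycolysis list limma called 0 of 19 tested genes higher and 1 lower (5.26%), beside 5.47% higher and 7.26% lower of all tested genes, and 18 were not called. The groups did not overlap for 4 higher (21.1%) and 7 lower (36.8%), beside 29.7% and 31.1% overall. At an unadjusted p under 0.05 there were 1 higher and 4 lower, beside 3397 of all 11290 tested genes in either direction. With voom 1 was called higher and 3 lower, beside 901 higher and 1166 lower of all 11290. The gene that fell was Slc16a3, which encodes the lactate exporter MCT4, at 8.34 and 9.92 FPKM with circEsyt2 siRNA, against 18.0 and 14.6 with scramble siRNA (log2 difference -0.77, SE 0.17, adjusted p = 0.0415 in limma). That call was also lost in each fit without 1 circEsyt2 siRNA library, leaving 0 of the 19 called. Pfkm, the muscle form of phosphofructokinase, had 3.34 and 4.12 FPKM with circEsyt2 siRNA, against 9.04 and 6.62 with scramble siRNA, and just missed the threshold (-0.89, adjusted p = 0.0504, limma). Ldha, which makes lactate, had 420 and 388 FPKM with circEsyt2 siRNA, against 490 and 534 with scramble siRNA (-0.34, adjusted p = 0.0758, limma). Gapdh had 14.9 and 12.3 FPKM, against 19.8 and 23.6 with scramble siRNA (-0.64, adjusted p = 0.0582, limma). Gapdh has many near-identical pseudogenes, so its counts are uncertain. The 19 genes lay between -0.89 and 0.30 on the log2 scale.

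Other HIF targets moved both ways, with 4 of 25 tested genes higher and 4 lower (1 and 3 without circEsyt2 siRNA replicate 2). That is 16% each way, beside 5.47% and 7.26% of all tested genes. Stc2, which encodes the secreted glycoprotein stanniocalcin 2, rose to 11.5 and 9.82 FPKM with circEsyt2 siRNA, against 1.61 and 0.845 with scramble siRNA (log2 difference 2.41, SE 0.25, adjusted p = 0.00508 in limma), a size close to that of Ndrg1. Its relative Stc1 did the opposite and fell to 15.0 and 14.2 FPKM, against 40.4 and 45.1 with scramble siRNA (-1.49, SE 0.13, adjusted p = 0.00425 in limma). Bhlhe40, which encodes a transcriptional repressor of the clock and the hypoxia response, rose to 28.9 and 35.7 FPKM, against 11.7 and 11.9 with scramble siRNA (1.37, SE 0.15, adjusted p = 0.00627 in limma). P4ha2, a subunit gene of the collagen prolyl hydroxylase, fell to 23.2 and 21.6 FPKM, against 52.4 and 49.8 with scramble siRNA (-1.15, SE 0.12, adjusted p = 0.00508 in limma).

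The remaining 4 calls of this list were named after their values were seen. Ddit4, a brake on mTORC1, had 36.9 and 45.4 FPKM with circEsyt2 siRNA, against 25.4 and 21.2 with scramble siRNA. Rora, a nuclear receptor gene, had 7.58 and 8.51 FPKM, against 4.68 and 4.18 with scramble siRNA. Both rose, by 0.79 and 0.74 on the log2 scale. Adm, which encodes the vasodilator peptide adrenomedullin, fell to 203 and 171 FPKM, against 371 and 371 with scramble siRNA. Nos2, the inducible nitric oxide synthase gene, fell to 2.05 and 4.06 FPKM, against 26.2 and 14.6 with scramble siRNA (log2 difference -2.39), while the macrophage marker sums given above were 39.4 and 8.07 with circEsyt2 siRNA, against 12.7 and 14.4, and their part was not tested. Of these 8 genes Stc2, Ddit4, Rora and Nos2 lost the call without circEsyt2 siRNA replicate 2, and Rora also without replicate 1. Stc2 and Ddit4 are known, like Ndrg1, to respond to stresses other than low oxygen.

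**Figure D4:**
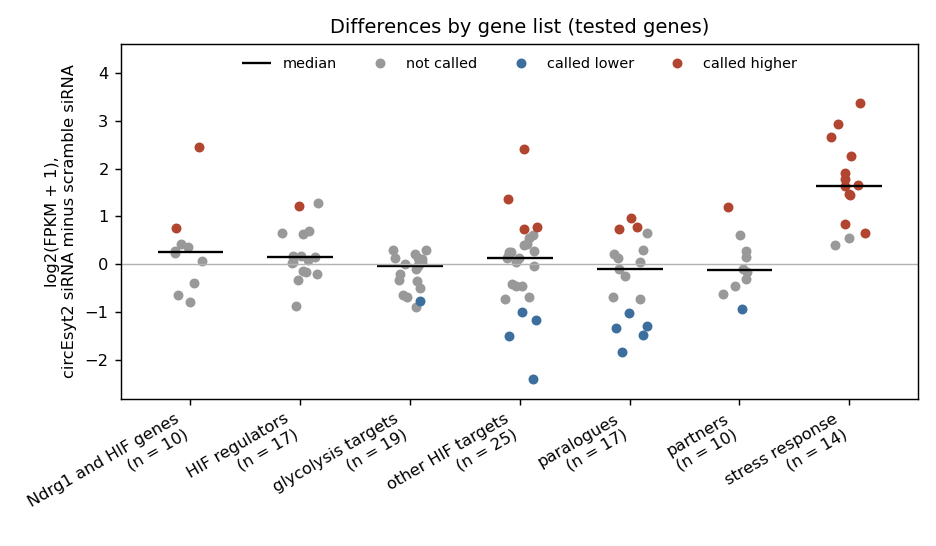
Difference on the log2(FPKM + 1) scale of every tested gene in each list, circEsyt2 siRNA minus scramble siRNA, with red for genes called higher, blue for genes called lower, grey for genes not called and a black line at the median. HIF regulators, glycolysis targets and other HIF targets have medians of 0.15, -0.03 and 0.13, and the 14 stress response genes a median of 1.64.

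Among the regulators of HIF 1 of 17 tested genes rose, 0 fell and 16 were not called, or 5.88% higher, beside 5.47% of all tested genes. At an unadjusted p under 0.05 limma had 5 higher and 0 lower, beside 3397 of all 11290 tested genes in either direction. With voom 3 were called higher and 0 lower, beside 901 higher and 1166 lower of all 11290. Without circEsyt2 siRNA replicate 1 the calls were 3 higher and 1 lower. The gene called with all libraries was Cited2, whose protein is itself induced by hypoxia and competes with HIF-1α for the coactivators p300 and CBP. Cited2 rose to 339 and 365 FPKM with circEsyt2 siRNA, against 154 and 148 with scramble siRNA (log2 difference 1.22, SE 0.10, adjusted p = 0.00369 in limma). Hif1an, which encodes the asparagine hydroxylase FIH that blocks the same contact, had 6.79 and 6.83 FPKM, against 3.61 and 4.08 with scramble siRNA (0.69, adjusted p = 0.0568, limma). Vhl had 19.2 and 24.6 FPKM with circEsyt2 siRNA, against 15.0 and 12.3 with scramble siRNA (0.64, adjusted p = 0.0709, limma). Siah2, a ubiquitin ligase gene whose product degrades EGLN3, had 7.88 and 16.0 FPKM, against 3.05 and 5.35 with scramble siRNA (1.28, adjusted p = 0.0761, limma). Siah2 was called under the replicate block (adjusted p = 0.0221, limma), at a mean of at least 5 FPKM (adjusted p = 0.0369, limma) and without circEsyt2 siRNA replicate 1 (adjusted p = 0.0378, limma). In these last 3 genes, named for their small p, both treated libraries were above both controls. Such a gap was seen upward in 7 of the 17 regulators (41.2%), beside 29.7% of all tested genes. Downward it was seen in 3 of the 17 (17.6%), beside 31.1%. Epas1, which encodes the sister factor HIF-2α and was named after its values were seen, had 5.23 and 1.37 FPKM with circEsyt2 siRNA, against 6.90 and 5.17 with scramble siRNA. Its groups overlapped only through circEsyt2 siRNA replicate 1, the library rich in hepatocyte markers, whose part was not tested. From the scramble mean, replicate 1 differed by -0.16 and replicate 2 by -1.56 (log2).

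Close relatives of the 10 genes gave 3 of 17 tested genes higher and 5 lower, counts that were 2 and 4 without circEsyt2 siRNA replicate 1, and 0 and 1 of 18 without replicate 2. With all libraries the shares were 17.6% higher and 29.4% lower, beside 5.47% and 7.26% of all tested genes. In the NDRG family Ndrg4 fell to 4.23 and 3.01 FPKM, against 11.8 and 9.43 with scramble siRNA (log2 difference -1.33, SE 0.21, adjusted p = 0.0173 in limma), a direction opposite to that of Ndrg1. The other 2 family members were named after their values were seen. Ndrg3 had 5.76 and 3.35 FPKM, against 7.11 and 8.80 with scramble siRNA. Ndrg2 had 16.3 and 5.18 FPKM, against 5.38 and 5.79 with scramble siRNA, and its 1 high value was in the library with 3130 FPKM of hepatocyte markers. In the VEGF family Vegfd, a lymphatic growth factor gene, fell to 7.83 and 5.71 FPKM, against 24.8 and 28.0 with scramble siRNA (-1.83, SE 0.18, adjusted p = 0.00508 in limma). Vegfc, named after its values were seen, rose to 68.1 and 80.0 FPKM, against 45.1 and 39.9 with scramble siRNA. Of the glucose transporter genes Slc2a6 fell by 1.02 and Slc2a10 fell by 1.47 (log2), and these were named after their values were seen.

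Around Mxi1, the other genes of the MYC network were not all on one side. Myc rose to 40.2 and 47.2 FPKM with circEsyt2 siRNA, against 20.8 and 22.7 with scramble siRNA (log2 difference 0.97, SE 0.14, adjusted p = 0.0119 in limma). Mxd4, a MYC antagonist like Mxi1, fell to 3.07 and 2.75 FPKM, against 9.56 and 7.62 with scramble siRNA (-1.29, SE 0.19, adjusted p = 0.0145 in limma). Mnt, a further antagonist named after its values were seen, rose to 12.1 and 10.6 FPKM, against 6.27 and 6.51 with scramble siRNA. The calls of Ndrg4, Vegfc, Slc2a6, Slc2a10, Myc, Mxd4 and Mnt were lost without circEsyt2 siRNA replicate 2, and those of Slc2a6 and Mnt also without replicate 1.

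Partners of the set gave 1 of 10 tested genes higher and 1 lower, and neither call held in every fit that left out a circEsyt2 siRNA library. With all libraries that is 10% each way, beside 5.47% and 7.26% of all tested genes. Kdr, which encodes the VEGF receptor VEGFR2, rose to 4.32 and 4.00 FPKM, against 1.23 and 1.26 with scramble siRNA (log2 difference 1.20, SE 0.24, adjusted p = 0.0303 in limma) and lost its call when any 1 library was left out. The endothelial marker sums of 5.11 and 3.97 with circEsyt2 siRNA, against 2.81 and 3.28 with scramble siRNA, stand beside it, and their part was not tested. The coreceptor gene Nrp2 fell to 11.1 and 10.0 FPKM, against 22.1 and 20.4 with scramble siRNA (-0.94, SE 0.14, adjusted p = 0.0138 in limma), and lost its call without replicate 2. Nrp1 had 7.27 and 9.15 FPKM with circEsyt2 siRNA, against 12.0 and 14.1 with scramble siRNA (adjusted p = 0.0774, limma). Gabarapl1, a gene of the autophagosome proteins that BNIP3 docks to, had 28.4 and 37.8 FPKM, against 19.0 and 23.4 with scramble siRNA (adjusted p = 0.0867, limma). Sgk1, whose kinase phosphorylates NDRG1 and which was named after its values were seen, had 70.2 and 69.4 FPKM, against 62.6 and 62.6 with scramble siRNA (log2 difference 0.15, adjusted p = 0.357, limma).

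A list of 14 genes of the integrated stress response, the programme led by ATF4, was set beside Ndrg1 for comparison. Of these 12 rose, 0 fell and 2 (Psat1 and Phgdh) were not called in limma, with a median log2 difference of 1.64. That is 85.7% higher, beside 5.47% of all tested genes. At an unadjusted p under 0.05 there were 14 higher and 0 lower, beside 3397 of all 11290 tested genes in either direction. With voom 14 were called higher and 0 lower, beside 901 higher and 1166 lower of all 11290. Fewer of the 14 were called without circEsyt2 siRNA replicate 2 than with all libraries. Cth, a cysteine-making enzyme gene, had 40.6 and 39.6 FPKM, against 3.84 and 4.96 with scramble siRNA (log2 difference 2.94, adjusted p = 0.00256, limma). Ddit3 (2.27), the asparagine synthetase gene Asns (1.91) and the amino acid transporter gene Slc7a5 (1.78) had the same adjusted p of 0.00256 in limma. This list was already known to move in these data and adds no independent support.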

How the data were processed

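RNA was sequenced in paired reads of 150 bp from 4 libraries, 2 with circEsyt2 siRNA and 2 with scramble siRNA, grouped by sample title. The authors deposited 1 table of FPKM per library. Per the submitters' processing notes the tools were Trimmomatic, HISAT2 and featureCounts, with GRCm38 (mm10) as build; their versions, strand setting and annotation are not given in the sources. The 10 genes and all lists were chosen with earlier results of these data known.

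Read numbers were solved from the FPKM digits with exon-union lengths of GENCODE M21. Of 20745 genes above 0, 96.5% gave whole numbers in all libraries within 0.001 reads, and the rest took the smallest length that did. In circEsyt2 siRNA replicate 1, 1467 genes had 2 reads, but 424 had 1 and 301 had 3, as counting both mates of a pair would give, so 2 reads may be 1 fragment. In a 1 kb gene each read adds 0.243 to 0.397 FPKM. Replicates differed by more than sampling noise (chi-square per degree of freedom 10.3 with circEsyt2 siRNA and 3.90 with scramble siRNA).

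The test was limma 3.58.1 in R 4.3.3 (eBayes with a trend, two-sided, Benjamini-Hochberg, threshold 0.05) on log2(FPKM + 1) for 11290 genes with a mean of at least 1 FPKM. An exact permutation test of 2 against 2 cannot go below 0.333. The alternatives were 12 planned ones and 1, voom on the solved reads, added after seeing the data. Named genes are the 10, the 4 with the smallest p in each list, and the 5 nearest to Ndrg1; others are marked where named. Positions are 1-based on GRCm38.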

Additional observations from a re-analysis of the deposited data

How the results depend on the processing

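Over the 13 alternatives the log2 difference of Ndrg1 ranged from 2.41 to 2.82, of Bnip3 from 0.64 to 0.87, of Slc2a1 from 0.26 to 0.60, of Hif1a from 0.29 to 0.42, of Vegfa from 0.19 to 0.36 and of Egln3 from -0.47 to -0.32. Pfkfb3 (-1.04 to -0.66) and Mxi1 (-0.86 to -0.42) kept their sign in the 12 that tested them, while Egln1 (-0.24 to 0.39) and Ankrd37 (-0.57 to 1.24, tested in 11) changed sign when a library was left out. The number of the 10 genes called was 1 without a trend in eBayes (Ndrg1), 4 at a mean of at least 5 FPKM and 4 with voom. Beside Ndrg1 and Bnip3, those 4 were Egln3 and Hif1a at 5 FPKM, and Hif1a and Pfkfb3 with voom. Bnip3 also lost its call without circEsyt2 siRNA replicate 2, and both Ndrg1 and Bnip3 lost theirs when either scramble replicate was left out. For HIF targets outside the set, 2 were higher without a trend, 8 were lower at a mean of at least 5 FPKM and 8 with voom, and leaving out a library gave 0 to 4 higher and 0 to 4 lower. HIF regulators called numbered 3 at a mean of at least 5 FPKM, 3 with voom, and 0 to 4 when a library was left out. Over all genes 203 were higher and 374 lower without a trend, and 0 to 405 higher and 0 to 622 lower when a library was left out; the main counts were 617 and 820.

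With the replicate block 404 genes were higher, 2 HIF targets were higher and 2 HIF regulators were called, and Slc16a3, Kdr, Ddit4, Rora, Mnt and Slc2a6 lost their calls among the 28 called genes named, while Siah2 gained one. Without a trend 7 of the 28 lost their calls (Slc16a3, Myc, Ddit4, Rora, Vegfc, Mnt and Slc2a6), without the filter 5 (Slc16a3, Kdr, Rora, Mnt and Slc2a6) and with median ratio scaling 2 (Slc16a3 and Rora). Of named genes not called, Siah2, Vhl, Pfkm, Gapdh, Nrp1 and Gabarapl1 were called at a mean of at least 5 FPKM, Hif1an, Vhl, Gapdh, Ldha and Nrp1 with voom, Pfkm with either lower pseudocount, and Ldha after quantile normalization. Replicate numbers only name libraries: same-numbered deviations correlated at -0.0507 over genes. Depth limits Ankrd37 most, with 1 read in a library of each group.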
